A study of Mus musculus with 9 samples.

Results

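The genes described here encode mechanosensitive and potassium channels: Piezo1 and Piezo2, the Tmem63 genes, the TRP genes (Trpc, Trpm, Trpv and Trpa1), Pkd1 and Pkd2, the Mcoln genes, and every gene whose symbol begins with Kcn. They were chosen by symbol among the protein-coding genes of the mouse annotation, and 127 of the 39179 genes in the count files met the rule. Trpc4ap and Trpc5os match by their symbols but are not channel subunits. By role, 5 of the 127 are Piezo or Tmem63 genes, 6 are TRPV, 8 TRPC, 9 TRPM or Trpa1, and 5 Pkd or Mcoln. Among the Kcn genes, 14 encode K2P (two-pore-domain) channels, 15 inward rectifiers, 40 voltage-gated subunits, 8 calcium- or sodium-activated channels and 17 accessory subunits.

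Capillaries with the cells around them were cut by laser microdissection from the ossification front (OF) of the femur, the zone next to the growth plate where new bone is laid down, and their RNA was sequenced to compare growing with adult bone. Each of the 9 libraries came from Tg(TIE2GFP)287Sato/J mice of C57BL/6 origin, in which the Tie2 promoter drives GFP in endothelial cells so that vessels can be seen for cutting. Juvenile mice were 4 weeks old (n = 5) and adult mice 12 weeks old (n = 4), and the transgene was present at both ages, with no other treatment given in the labels. GFP guided the cutting but did not sort the cells, so a library holds endothelial cells, perivascular cells and whatever else lay in the cut pieces.

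As background, Piezo proteins are channels that open when the membrane is stretched and let cations, including calcium, into the cell. TRP channels are cation channels with varied triggers, and TRPV4 is known for its response to osmotic and mechanical stimuli in chondrocytes and bone cells. Potassium channels carry potassium out of the cell or hold the membrane potential, which sets the driving force for calcium entry. K2P channels give a background potassium current, and KCNK2 (TREK-1) is itself opened by membrane stretch.

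The juvenile libraries held 4856833 to 7398483 counts and the adult libraries 5821596 to 8077362, so that 3 counts were worth between 0.347 and 0.638 normalised CPM (counts scaled to the TMM-adjusted size of the library). Of the 13418 genes tested between the ages, 520 had an adjusted p under 0.05 by edgeR's quasi-likelihood test. The libraries of the 2 ages differed in marker transcripts of several cell types. The summed CPM of 7 erythroid marker genes was 349 to 2435 in juvenile and 4191 to 33871 in adult libraries, and that of 7 neutrophil markers 5.80 to 64.0 against 91.2 to 4301. All 7 genes of each of these lists were higher in adults. The sum of 10 osteoblast markers was 170615 to 212571 in juvenile and 62988 to 93392 in adult libraries, with 5 of the 10 higher in juveniles and 2, Bglap and Bglap2, higher in adults. Col1a1 and Col1a2 had the highest CPM of the 10, with means of 75812 and 82107 in juvenile and 29303 and 34403 in adult libraries. The sums of 8 endothelial markers (562 to 858 against 667 to 864) and of 6 pericyte markers (448 to 662 against 448 to 607) overlapped between the ages, and none of these 14 genes was called.

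Many channel genes were not detected in the OF. No count in any library was found for 41 of the 127 (32.28%), against 26.48% of all 21303 protein-coding genes. The filter on low counts passed 40 of the 127 (31.5%), against 56.6% of protein-coding genes. The share that passed varied with the family: 4 of 5 Piezo and Tmem63 genes and 4 of 5 Pkd and Mcoln genes passed, compared with 3 of 14 K2P genes and 6 of 40 voltage-gated subunits. A gene can pass this filter through the age at which it is high, so the counts below describe the genes that passed and not the whole list.

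To compare genes with one another, levels were expressed as TPM, counts divided by exon length and scaled to the library's total. Over the 9 libraries together Kcnk1 had the highest mean level, at 125 TPM. It was followed by the accessory subunit Kcne3 at 46.6, Trpv4 at 45.5, Trpc4ap at 35.7 and Piezo1 at 34.3 TPM. Tmem63a (26.5), Trpm7 (26.1), Kcnj8 (25.8), Tmem63b (21.9) and Kcnk6 (20.7 TPM) completed the first 10, Kcnk2 was in place 16 at 13.5 TPM, and Piezo2 in place 22 at 5.31 TPM. Not all neighbours in this order could be separated: Kcnk1 exceeded Trpv4 in 7 of 9 libraries and Piezo1 in 8 of 9, and Trpv4 exceeded Piezo1 in 7 of 9. The order depended on age. In juvenile libraries Kcnk1 (192 ± 64.1 TPM, SD, n = 5) was above each other channel gene in 5 of 5, and Trpv4 (57.3 ± 8.99) and Kcne3 (43.8 ± 19.3) came next. In adult libraries Kcne3 (50.2 ± 37.3 TPM, SD, n = 4) had the highest mean and Kcnk1 (41.05 ± 20.1) the next, but Kcnk1 exceeded Kcne3 in 2 of 4, so these were not separated. Piezo1 was in place 4 in juvenile and 5 in adult libraries, and Kcnk2 in place 16 at both ages. The level of Kcnk1 ranged from 11.2 to 267 TPM between libraries, whereas that of Piezo1 ranged from 20.8 to 45.4 TPM. The TPM of all 127 genes together summed to 680 to 840 in juvenile and 372 to 582 in adult libraries. Kcnk1 alone made up 2.37% to 31.8% of this sum, which also includes Trpc4ap. TPM is a share of the library's total, so the sum depends on the other transcripts of the library too.

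Between the ages, Kcnk1 was the single channel gene called, out of 40 tested, against 3.88% of all genes (1.99% higher in juveniles and 1.89% higher in adults). Kcnk1 was also the single one called with replicate number as a block, where 0.663% of all genes were. With 10 counts required in every library 3 of 24 channel genes were called (6.57% of all genes), and with DESeq2 8 of 54 (9.47% of all genes), each time including Kcnk1. At an unadjusted p under 0.05 there were 7 of 40 (17.5%), close to the 17.3% found among all genes tested. The values of the ages did not overlap for 5 of 40 (12.5%), against 9.15% of all genes. Kcnk1, Kcnn1, Kcnma1 and Trpm7 were among these 5, and in all 5 every juvenile library was above every adult library, an arrangement found in 5.07% of all genes. Of the 40, 31 had a higher fitted level in juveniles and 9 in adults, with a median log2 fold change (juvenile over adult) of 0.53. Among all genes tested 49.5% were higher in juveniles, with a median of -0.01. The same 31 to 9 split was counted with DESeq2's size factors in place of the TMM scaling. Without juvenile replicates 4 and 5, 27 of 43 channel genes (62.79%) were higher in juveniles, with a median of 0.33. In that fit 48.03% of all genes were higher in juveniles. In cut tissue of mixed cells, fewer cells of a type and less RNA per cell cannot be told apart, which applies to each age difference that follows.

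**Figure D1:**
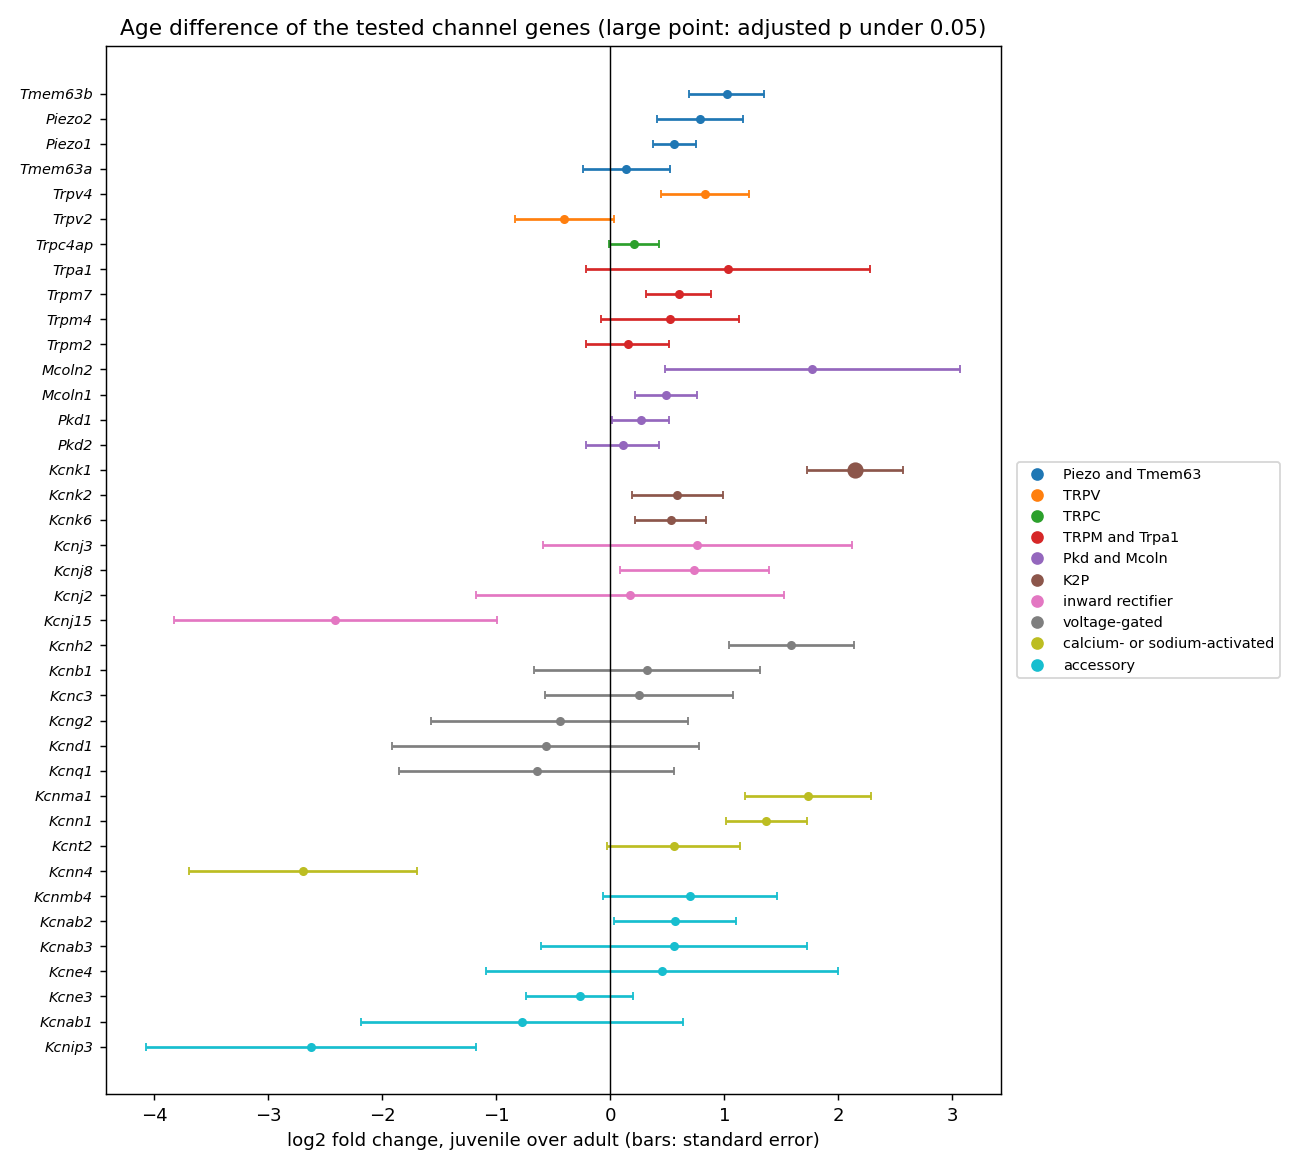
Fitted log2 fold change of 39 tested channel genes, juvenile over adult, with bars of 1 standard error (derived from the F statistic of the test) and colours for the families. Kcnk1 (2.15) carries the large point for an adjusted p under 0.05, and 30 of the 39 points lie to the right of 0.

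The K2P gene Kcnk1 encodes TWIK-1, a weakly inward-rectifying background potassium channel (ENSMUSG00000033998, GRCm38 chr8:125995170-126030685, plus strand). Its normalised CPM in juvenile replicates 1 to 5 was 93.5, 134, 182, 238 and 191. In adult replicates 1 to 4 it was 10.1, 43.4, 48.7 and 49.4. The lowest juvenile library was above the highest adult library, and adult replicate 1 stood below the other adults. Kcnk1 averaged 168 ± 55.6 CPM in juvenile against 37.9 ± 18.8 CPM in adult OF (SD, n = 5 and 4), and the fitted log2 fold change was 2.15 (SE 0.42, adjusted p = 0.0148, edgeR). Kcnk1 was called, higher in juveniles, in 14 of 15 alternative fits, with log2 fold changes from 1.81 to 2.30 and adjusted p from 1.70e-05 to 0.140. The exception left out juvenile replicates 4 and 5, in which Xist did not exceed the Y-linked genes, and kept 7 libraries (3 juvenile, 4 adult), in which the log2 fold change was 1.85 (adjusted p = 0.140, edgeR). Juvenile libraries also held the larger sums of osteoblast markers, and the part of cell makeup in the difference of Kcnk1 was not tested. In adult replicate 1, which had the lowest Kcnk1, the osteoblast sum was 91004 CPM, within the adult range. That library also had the highest neutrophil (4301 CPM) and macrophage (1580 CPM) marker sums of all libraries, and the cause of its low Kcnk1 was not tested.

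The other K2P genes gave no call. Kcnk2 encodes the stretch-opened channel TREK-1 (ENSMUSG00000037624, chr1:189207930-189402273, minus strand). Its normalised CPM was 37.0, 39.6, 25.8, 26.8 and 26.1 in juvenile replicates 1 to 5, and 38.1, 11.9, 16.9 and 15.7 in adult replicates 1 to 4. The adult replicate with the lowest Kcnk1 had the highest Kcnk2 of its age, and the ages overlapped (log2 fold change 0.59, SE 0.40, adjusted p = 0.515, edgeR). Kcnk6, which encodes another weak background channel (TWIK-2), averaged 39.7 ± 11.9 in juvenile and 27.5 ± 5.04 CPM in adult libraries (SD, n = 5 and 4; log2 0.53, SE 0.31, adjusted p = 0.431, edgeR). By level per length, Kcnk1 exceeded Kcnk6 in 8 of 9 libraries, Kcnk6 exceeded Kcnk2 in 7 of 9, and Kcnk1 exceeded Kcnk2 in 8 of 9. Kcnk1 made up 22.6% to 85.7% of the summed TPM of the 14 K2P genes. That sum was 147 to 311 TPM in juvenile and 49.5 to 79.7 TPM in adult libraries.

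The remaining K2P genes were at or near 0. Kcnk5, which encodes TASK-2, had 39 counts in juvenile replicate 1, 2 in juvenile replicate 3, 98 in adult replicate 2, 25 in adult replicate 4 and none elsewhere, and Kcnk10 (TREK-2) had 16 counts in juvenile replicate 2 alone. Kcnk4, which encodes the third mechanically gated member TRAAK, had no count in any of the 9 libraries, which allows up to 0.347 to 0.638 normalised CPM a library. Of its 4465 exonic bases, 587 are shared with Catsperz on the same strand, and reads there cannot be assigned to 1 gene with certainty. Of the 3 mechanically gated K2P channels, therefore, Kcnk2 was the only one counted in every library.

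**Figure D2:**
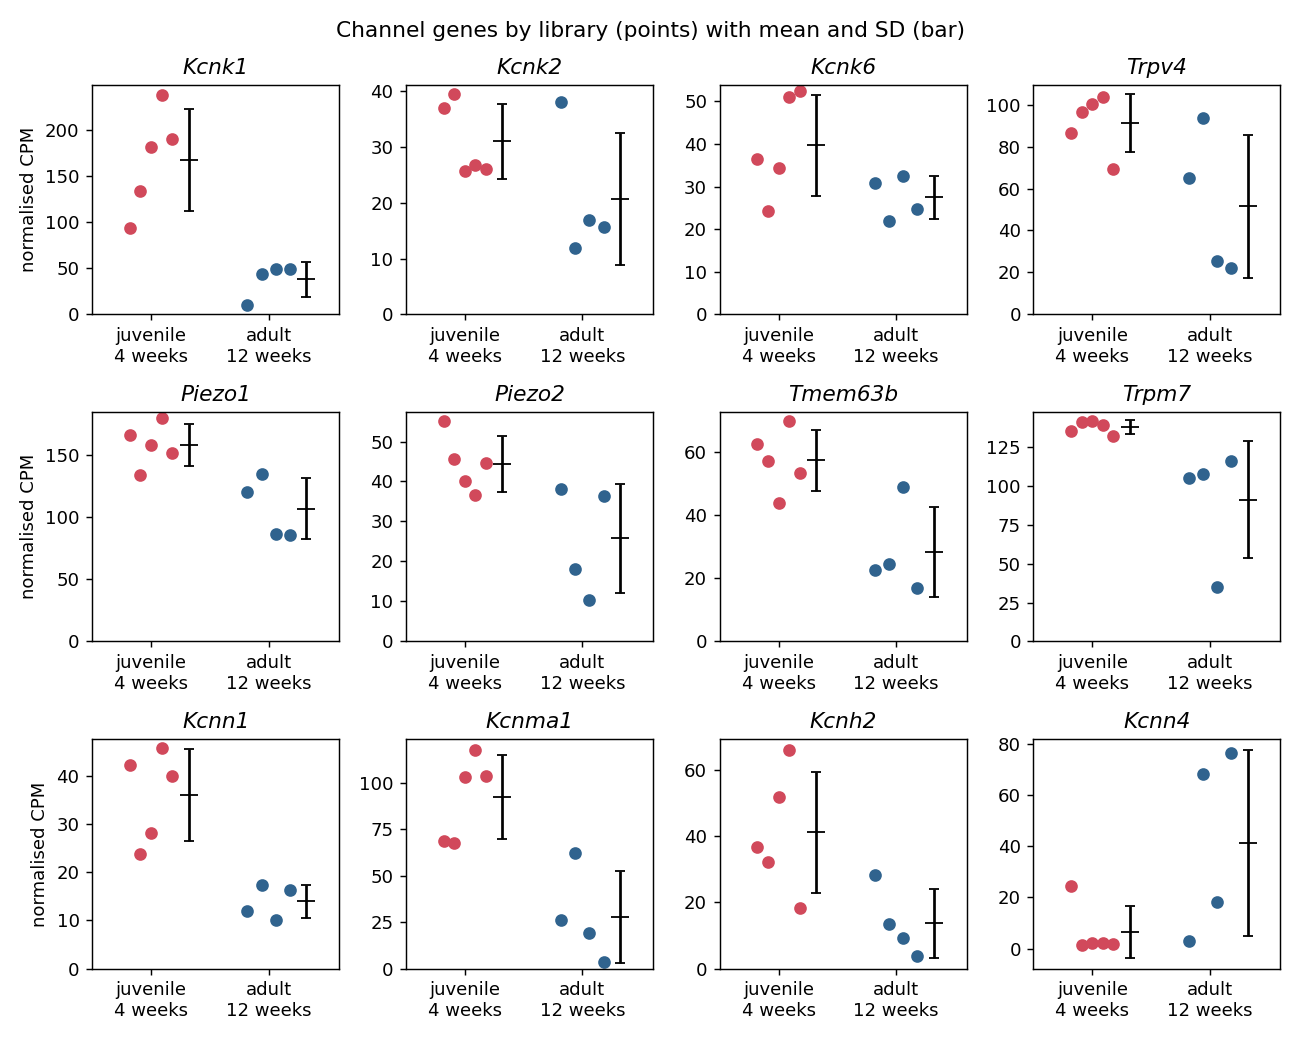
Normalised CPM of named channel genes in each of the 9 libraries, with points for juvenile and adult libraries and the mean with its SD beside them, on linear axes. For Kcnk1 the juvenile points (93.5 to 238) lie above all adult points (10.1 to 49.4), whereas for Piezo1 the ranges 134 to 180 and 86.1 to 135 meet.

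Piezo1 (ENSMUSG00000014444, chr8:122481698-122551329, minus strand) had 166, 134, 158, 180 and 152 normalised CPM in juvenile replicates 1 to 5. In adult replicates 1 to 4 the values were 121, 135, 86.7 and 86.1. Adult replicate 2 reached the lowest juvenile library, and the other adults were below all juveniles. Juvenile libraries averaged 158 ± 17.0 and adult libraries 107 ± 24.7 CPM (SD, n = 5 and 4), a log2 fold change of 0.56 (SE 0.19) that missed the threshold (adjusted p = 0.131, edgeR; 0.0650 to 0.434 over 15 alternatives). Exons of Piezo1 overlap those of Ctu2 on the opposite strand over 2441 bases, and since the sources do not state that counting used the strand, reads there cannot be assigned to one of the 2 genes with certainty.

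Piezo2, the relative of Piezo1 best known from sensory neurons (ENSMUSG00000041482, chr18:63010213-63387183, minus strand), was lower per length. It had 55.1, 45.7, 40.0, 36.6 and 44.7 CPM in juvenile replicates 1 to 5, and 38.1, 18.2, 10.3 and 36.5 in adult replicates 1 to 4. The lowest juvenile library lay just under the highest adult library, and the difference was not called (log2 0.78, SE 0.38, adjusted p = 0.313, edgeR). Of the nerve and Schwann cell markers, Sox10, Nefl and Prph had no count in any library, the 1 marker tested was higher in juveniles, and the list summed to 1.69 to 13.4 CPM in juvenile and 0.247 to 3.51 CPM in adult libraries. Piezo1 exceeded Piezo2 in TPM in 9 of 9 libraries.

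The Tmem63 genes encode osmotically and mechanically gated cation channels of the OSCA/TMEM63 family. Tmem63b had 62.5, 57.2, 44.1, 70.0 and 53.6 CPM in juvenile replicates 1 to 5, and 22.5, 24.7, 49.1 and 16.9 in adult replicates 1 to 4. Adult replicate 3 lay among the juvenile values and the other adults below them. The log2 fold change was 1.02 (SE 0.33, adjusted p = 0.108, edgeR). Over 15 alternatives the adjusted p was 0.0281 to 0.396, with 2 of them called. With all libraries kept, DESeq2 called Tmem63b (adjusted p = 0.0379). Without adult replicate 3 the log2 fold change was 1.41 (adjusted p = 0.0281, edgeR). Leaving out the adult nearest the juveniles widens the gap by itself, so that p is not read as support. Tmem63a was at 49.7 ± 15.01 CPM in juvenile and 45.1 ± 22.0 CPM in adult libraries (SD, n = 5 and 4; log2 0.14, SE 0.38), and Tmem63c had no count. Exons of Tmem63b share 394 bases with Gm16172 and Mrpl14 on the opposite strand, and those of Tmem63a share 157 with 2210411M09Rik. The limit given for Piezo1 applies to reads there. In TPM, Piezo1 exceeded Tmem63a in 7 of 9 libraries, Tmem63a exceeded Tmem63b in 7 of 9, and Tmem63b exceeded Piezo2 in 9 of 9. Piezo1 made up 29.7% to 48.9% of the summed TPM of this family.

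Among the TRPV genes, Trpv4 and Trpv2 were the members tested. Trpv4 (ENSMUSG00000014158, chr5:114622152-114658421, minus strand) had 86.5, 96.5, 100.2, 104 and 69.5 CPM in juvenile replicates 1 to 5. In adult replicates 1 to 4 it had 64.8, 93.7, 25.2 and 22.2 CPM. Adult replicates 3 and 4 were low, adult replicate 1 lay just under the lowest juvenile, and adult replicate 2 lay within the juvenile range. Juvenile libraries averaged 91.3 ± 13.8 and adult libraries 51.5 ± 34.2 CPM (SD, n = 5 and 4), and the log2 fold change was 0.83 (SE 0.38, adjusted p = 0.291, edgeR; 0.0683 to 0.538 over 15 alternatives). Trpv2, a cation channel prominent in macrophages, was at 19.4 ± 8.93 CPM in juvenile and 25.6 ± 9.24 CPM in adult libraries (log2 -0.40, SE 0.44, adjusted p = 0.727, edgeR). Trpv4 exceeded Trpv2 in TPM in 8 of 9 libraries. Trpv3 had 55 counts, from 3 juvenile libraries, and Trpv1, Trpv5 and Trpv6 had none in any library.

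In the TRPC family the highest gene, Trpc4ap, encodes an adaptor rather than a channel and had a log2 fold change of 0.21 (SE 0.22). Trpc1, which encodes a channel subunit, had 5 counts in juvenile replicate 5 and none elsewhere, and 5 of the 8 genes of this family had no count in any library.

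Trpm7 encodes a channel fused to a kinase that passes magnesium and calcium, and was the highest TRPM gene, above Trpm2 in 9 of 9 libraries in TPM. Its CPM was 135, 141, 142, 140 and 132 in juvenile replicates 1 to 5, and 105, 108, 35.1 and 116 in adult replicates 1 to 4. The juvenile libraries lay close together and above all adults, of which adult replicate 3 stood apart (138 ± 4.23 against 91.2 ± 37.7, SD; log2 0.60, SE 0.29, adjusted p = 0.306, edgeR). Trpm2, a channel opened by oxidative stress, and Trpm4, a calcium-activated cation channel, had log2 fold changes of 0.15 (SE 0.36) and 0.52 (SE 0.60). The polycystin genes Pkd1 and Pkd2 and the lysosomal channel gene Mcoln1 were each counted in every library, at 16.4, 19.6 and 18.4 TPM. Their log2 fold changes were 0.27, 0.11 and 0.49, with adjusted p of 0.673, 0.924 and 0.400 (edgeR). Pkd2 exceeded Mcoln1 in 5 of 9 libraries, so this order was not separated, and 693 exonic bases of Pkd1 are shared with Tsc2 on the opposite strand.

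Among the calcium-activated potassium channels, Kcnn1 and Kcnma1 were higher in every juvenile than in any adult library. Kcnn1 (ENSMUSG00000002908, chr8:70842049-70863258, minus strand) encodes the small-conductance channel SK1. Its exons share 132 bases with A230052G05Rik on the opposite strand. Its CPM was 42.2, 23.8, 28.1, 45.8 and 40.1 in juvenile replicates 1 to 5, and 11.9, 17.4, 10.1 and 16.4 in adult replicates 1 to 4. The means of 36.0 ± 9.54 and 13.96 ± 3.48 (SD, n = 5 and 4) gave a log2 fold change of 1.37 (SE 0.36) whose adjusted p of 0.0518 (edgeR) fell just short of the threshold. It passed in 2 of 15 alternatives, at 0.0473 with 10 counts required in every library and at 0.00126 with DESeq2 (range 0.00126 to 0.333).

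Kcnma1 (ENSMUSG00000063142, chr14:23289431-24014491, minus strand) encodes the pore of the large-conductance BK channel, which opens with calcium and depolarisation. It had 68.9, 67.7, 103, 118 and 104 CPM in juvenile replicates 1 to 5, and 26.4, 62.1, 19.4 and 3.76 in adult replicates 1 to 4. The log2 fold change was 1.73 (SE 0.55, adjusted p = 0.106, edgeR; 0.0204 to 0.425 over 15 alternatives, 3 of them called). Adult replicate 2 came within a few CPM of the lowest juvenile, and without it the log2 fold change was 2.46 (adjusted p = 0.0204, edgeR). Leaving out the adult nearest the juveniles widens the gap by itself, so that p is not read as support. Its smooth-muscle-type accessory subunit gene Kcnmb1 had 1, 10, 2, 15 and 23 counts in juvenile replicates 1 to 5, 1 count in adult replicate 2 and none in the other adults, too few for the edgeR test. Kcnmb4, another BK accessory subunit gene, was counted in all 9 libraries, at a mean of 4.88 TPM. It was not called (log2 0.70, SE 0.76, adjusted p = 0.733, edgeR), and its exons share 1048 bases with Kcnmb4os1 and Kcnmb4os2 on the opposite strand. The sums of pericyte markers, given above, overlapped between the ages, but single markers went in both directions. Cspg4 was at 133 ± 14.9 CPM in juvenile and 71.2 ± 36.8 CPM in adult libraries, and Rgs5 at 29.0 ± 13.2 and 144 ± 124 CPM (SD). The part of pericytes in the values of Kcnma1 and Kcnmb1 was not tested.

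Kcnn4 had the opposite sign. It encodes the intermediate-conductance channel KCa3.1, known as the Gardos channel of red blood cells and also present in cells of the immune system. Its CPM was 24.5, 1.44, 2.13, 2.06 and 1.70 in juvenile replicates 1 to 5, and 3.01, 68.3, 18.1 and 76.4 in adult replicates 1 to 4. Juvenile replicate 1 lay among the adults, and adult replicate 1 lay close to the other juveniles. The log2 fold change was -2.70 (SE 1.001, adjusted p = 0.169, edgeR; 0.0197 to 0.556 over 14 alternatives, 2 of them called). Without juvenile replicate 1 it was -4.49 (adjusted p = 0.0197, edgeR). Leaving out the juvenile nearest the adults widens the gap by itself, so that p is not read as support. Juvenile replicate 1 also had the highest erythroid sum of the juveniles, 2435 CPM against 349 to 1004 in the other juveniles, whereas adult replicate 1 had an erythroid sum of 7198 CPM and little Kcnn4. The part of blood cells in these values was not tested. Kcnt2, a sodium-activated channel gene, was at 26.7 ± 11.6 and 18.2 ± 13.2 CPM (log2 0.55, SE 0.58), and Kcnn3 had no count.

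Within the inward rectifiers, Kcnj8, which encodes the pore of the vascular KATP channel (Kir6.1), was the highest, above Kcnj2 in 8 of 9 libraries. It had 52.4, 53.4, 16.0, 6.01 and 30.7 CPM in juvenile replicates 1 to 5, and 32.6, 5.18, 10.4 and 27.9 in adult replicates 1 to 4. The SD within each age (21.3 and 13.3 CPM) was wider than the gap between the means (31.7 and 19.0 CPM; log2 0.74, SE 0.65, adjusted p = 0.652, edgeR). Kcnj11, which encodes the other KATP pore, had no count, nor did Abcc8, its usual regulatory partner. Abcc9, the partner of Kcnj8 in vascular KATP channels, was at 123 ± 34.3 CPM in juvenile and 56.8 ± 27.3 CPM in adult libraries (log2 1.11, SE 0.34, adjusted p = 0.0899, edgeR). Abcc9 is also in the list of pericyte markers, and the part of cell makeup in its values was not tested. Kcnj2 and Kcnj15 were low, with juvenile means of 3.93 and 1.27 CPM, adult means of 3.50 and 6.83 CPM, and log2 fold changes of 0.17 (SE 1.35) and -2.41 (SE 1.42).

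Of the 40 voltage-gated genes, 15 had no count in any library and 6 were tested. Kcnh2, which encodes the HERG channel that carries a repolarising current in the heart, was the highest, at 15.1 TPM. Its CPM was 36.8, 32.3, 51.9, 66.1 and 18.4 in juvenile replicates 1 to 5, and 28.2, 13.5, 9.16 and 3.76 in adult replicates 1 to 4. The log2 fold change was 1.59 (SE 0.55, adjusted p = 0.135, edgeR; 0.0392 to 0.343 over 15 alternatives, 2 of them called). Adult replicate 1 lay above the lowest juvenile, and without that adult library the log2 fold change was 2.21 (adjusted p = 0.0392, edgeR). Leaving out the adult nearest the juveniles widens the gap by itself, so that p is not read as support. Kcng2 and Kcnq1, the next in level at 3.27 and 2.93 TPM, had log2 fold changes of -0.45 (SE 1.13) and -0.65 (SE 1.21), of which neither was called. Kcns1, a silent modifier subunit, was not tested by edgeR, with 23, 30, 0, 7 and 24 counts in juvenile libraries and 0 in all 4 adult libraries.

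The accessory subunit Kcne3, a single-span partner of voltage-gated channels, was the highest of its group in 9 of 9 libraries when set against the next gene, Kcnab3. Its CPM was 44.2, 15.6, 45.1, 22.3 and 25.2 in juvenile replicates 1 to 5, and 27.6, 77.8, 24.6 and 17.2 in adult replicates 1 to 4. The ages overlapped, with adult replicate 2 above all others (log2 -0.27, SE 0.47, adjusted p = 0.852, edgeR). The cytoplasmic beta subunit genes Kcnab2 and Kcnab3 had log2 fold changes of 0.56 each (SE 0.53 and 1.17), with adjusted p of 0.678 and 0.882 (edgeR).

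Pairs of channels were also compared within each library, which removes the library's scale. CPM is not divided by exon length, so the sign of a ratio does not give the order per length. The comparison between ages does not depend on length. The log2 ratio of Piezo1 to Piezo2 (from CPM with 1 added) was 1.82 ± 0.30 in juvenile and 2.16 ± 0.87 in adult libraries (SD, n = 5 and 4; exact permutation test, two-sided, p = 0.397, adjusted over 3 ratios 0.397). That of Trpv4 to Piezo1 was -0.79 ± 0.25 and -1.27 ± 0.67 (exact permutation p = 0.214, adjusted 0.321), although in TPM Trpv4 exceeded Piezo1 in 7 of 9 libraries. That of Kcnk1 to Kcnk2 was 2.35 ± 0.78 in juvenile and 0.76 ± 1.73 in adult libraries, a difference of 1.59 (exact permutation p = 0.0952, adjusted 0.286). The smallest p the design allows is 0.00794. Adult replicate 1 was the only library with Kcnk1 below Kcnk2, at a ratio of -1.82, and without it the difference was 0.73.

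**Figure D3:**
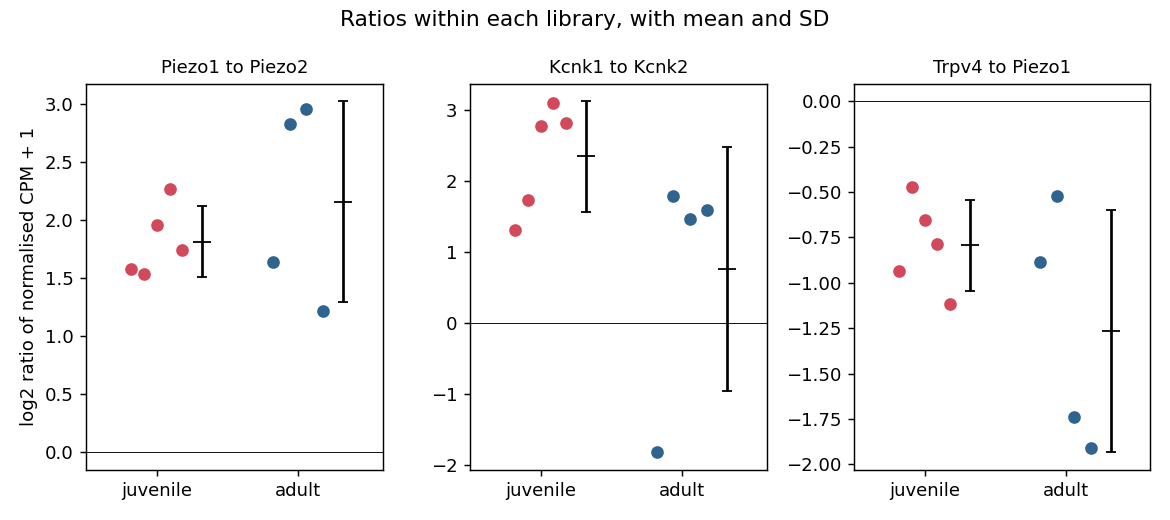
Log2 ratios of pairs of channel genes within each library, from normalised CPM with 1 added and not divided by exon length, with juvenile and adult points and the mean with SD. Piezo1 lies above Piezo2 in all 9 libraries (1.22 to 2.96), and for Kcnk1 to Kcnk2 1 adult library lies below 0, at -1.82.

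Partner and downstream genes were taken from lists by function. None of 3 tested Piezo partners was called by edgeR: Tmem120a, the highest at 72.2 TPM, had a log2 fold change of 0.79 (SE 0.24, adjusted p = 0.0970). None of 3 tested potassium channel partners and none of 8 store-operated calcium entry genes was called either, the highest of the latter, Orai1 (the pore of the store-operated channel), being at 30.4 ± 2.87 and 37.4 ± 8.38 CPM. Of 9 tested calcineurin and NFAT genes, which carry calcium signals to the nucleus, 1 was called (3.88% of all genes). This was Nfatc1, the transcription factor that drives osteoclast differentiation, which was higher in adults, at 257 ± 48.0 CPM against 123 ± 28.0 CPM in juveniles (log2 -1.07, SE 0.21, adjusted p = 0.0142, edgeR). Rcan1, the calcineurin inhibitor gene that was highest in this list at 89.9 TPM, had a log2 fold change of -1.25 (SE 0.32, adjusted p = 0.0503, edgeR). The sum of 7 osteoclast markers was 12835 to 21062 CPM in juvenile and 16321 to 25292 CPM in adult libraries. Of the 7, 1 was called (3.88% of all genes). This was Acp5, higher in adults, at 7188 ± 836 CPM in juvenile and 13248 ± 2129 CPM in adult libraries (SD, log2 -0.88, SE 0.14, adjusted p = 0.00626, edgeR). The part of osteoclasts in the difference of Nfatc1 was not tested.

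Among 7 tested genes of other mechanically gated or volume-regulated channels, 1 was called (3.88% of all genes). Lrrc8d, a subunit of the volume-regulated anion channel, was at 40.9 ± 3.37 CPM in adult and 16.3 ± 4.00 CPM in juvenile libraries (log2 -1.33, SE 0.31, adjusted p = 0.0348, edgeR). Gja1, which encodes the gap junction protein connexin 43 and had the highest level of this list at 217 TPM, was at 1084 ± 130 and 633 ± 213 CPM in juvenile and adult libraries (log2 0.77, SE 0.21, adjusted p = 0.0652, edgeR).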

How the data were processed

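RNA of microdissected OF tissue was amplified by poly-A dependent cDNA synthesis (Smart-Seq v4), tagmented with Nextera XT and sequenced as paired-end reads; the authors deposited unnormalised read counts per Ensembl gene, with TopHat2, Bowtie2, featureCounts and GRCm38 named in the submitters' processing notes. Strand setting and annotation release are not given in the sources used here. Amplified reads are not independent molecules, so the value of 3 counts, taken as the limit of a count of 0, covers counting error only.

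Gene IDs were matched to GENCODE M21 (37693 of 39179, 96.2%). Ages were compared with edgeR 4.0.16 (R 4.3.3) over all genes: default low-count filter, TMM scaling, quasi-likelihood test and Benjamini-Hochberg adjustment, with 0.05 as the threshold. CPM were TMM-normalised, and TPM used exon length. Each edgeR SE is the size of the log2 fold change divided by the square root of the test's F statistic. It is thus derived from the test and is not separate evidence beside the p-value. Ratios used an exact permutation test. The fit was tested on simulated data. Alternatives were DESeq2 1.42.0 size factors and defaults, no filter, 10 counts in every library, a replicate block, each library left out, and the 7 libraries in which Xist exceeded the Y-linked genes; for the ratios, a pseudocount of 0.1 CPM in place of 1. Groups came from the labels, which do not say whether each library is a separate animal: p-values measure the spread between libraries.

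Genes named are Piezo1, Piezo2, Trpv4, Kcnk1, Kcnk2, called members, the 10 smallest p and the 3 highest in TPM of each family (31 in all, 29 tested), and for other lists the called genes and the highest in TPM. Genes at 0, not tested, in a single library or partnering a member (Abcc8, Abcc9 and Kcnmb4) were named after their values were seen. 1 gene that met the rule is not reported here by name. Members and lists were chosen with earlier results of these data known.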

Additional observations from a re-analysis of the deposited data

Results flagged for a closer look

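In 5 of 60 sets of values (a named gene within an age), 1 library lay far from the rest of its age by Dixon's test. For normally distributed values chance gives about 1 in 20, or 3. Sets made mainly of 0 are not so distributed, so no conclusion is drawn from 5 against 3. Kcnk1 was at 10.1 CPM in adult replicate 1, against 43.4 to 49.4 in the other adults. Kcnn4 was at 24.5 CPM in juvenile replicate 1, against 1.44 to 2.13 in the other juveniles. Trpm7 was at 35.1 CPM in adult replicate 3, against 105 to 116 in the other adults. Kcnj2 was at 11.7 CPM in adult replicate 2, against 0 to 1.63. Trpc1 was at 1.06 CPM in juvenile replicate 5 and at 0 in the other juveniles, which rests on 5 counts. A single value above 0 among values of 0 always stands apart in this test.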

How the results depend on the processing

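With edgeR, 520 genes were called in the analysis as reported, 1490 with DESeq2's default settings, 89 with a replicate block, 73 in the 7 libraries in which Xist exceeded the Y-linked genes (juvenile replicates 4 and 5 left out), and 262 to 651 with 1 library left out, lowest without juvenile replicate 5. The channel genes called numbered 1 as reported and with the replicate block (Kcnk1, log2 2.24, adjusted p = 0.0232, edgeR; 1.70e-05 to 0.140 over its alternatives). They numbered 3 of 24 with 10 counts required in every library (6.57% of all genes), 8 of 54 with DESeq2 (9.47% of all genes), 1 to 2 with 1 library left out, and 0 in the 7 libraries (0.526% of all genes; 5 of 43 at an unadjusted p under 0.05, edgeR). The 3 were Kcnk1, Kcnn1 and Kcnma1, and DESeq2 added Kcnh2, Tmem63b, Kcnn4, Kcns1 and Kcnmb1. Left out singly, juvenile replicate 1 added Kcnn4, adult replicate 1 Kcnh2, adult replicate 2 Kcnma1 and adult replicate 3 Tmem63b. Each of these libraries was the one of its age nearest the other age for that gene, so leaving it out widens the gap by itself. The labels give the ages the same replicate numbers. Deviations of same-numbered libraries correlated at 0.0268, -0.0318, 0.0187 and 0.0303, and 3 of 4 correlated best with their own number. Correlations this small do not settle whether the libraries are paired. The main fit took them as unpaired, because the labels number the libraries of each age separately. No conclusion is drawn from the lower count under the block. Of the log2 fold changes of single genes under the alternatives, 399 kept their direction and call, 11 passed the threshold newly, 1 lost it and 17 changed sign, and none of the 17 belonged to a called gene. With 1 library left out, Kcne3 ranged from -0.52 to 0.38 (positive without adult replicate 2), Kcng2 from -0.88 to 1.13 (positive without adult replicate 4), Kcnj2 from -0.25 to 2.30 (negative without juvenile replicates 1 and 3 and adult replicates 1, 3 and 4), Kcnq1 from -1.55 to 0.52 (positive without adult replicate 1), Pkd2 from -0.10 to 0.34 (negative without juvenile replicate 5 and adult replicates 3 and 4), Tmem63a from -0.14 to 0.44 (negative without adult replicate 4) and Trpm2 from -0.058 to 0.40 (negative without adult replicate 1). The replicate block turned Kcng2 (1.03) and Pkd2 (-0.0035), and the 7 libraries turned Pkd2 (-0.19) and Tmem63a (-0.11). The causes were not tested. The 3 ratios kept their direction under each alternative. DESeq2's size factors moved the median of all genes by -0.023 on the log2 scale. The filter on low counts left 87 channel genes without an edgeR test, and of these DESeq2 called Kcns1 and Kcnmb1.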

Other observations

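Of the channel genes with at least 20 counts in a library, 4 were counted in 1 library with at most 1 count in any other. Kcna3, a voltage-gated channel gene of lymphocytes, had 102 counts in adult replicate 4 and none elsewhere. Kcna6 had 157 counts in adult replicate 2 and at most 1 count in another library, and its exons overlap those of Gm26673 on the opposite strand. Kcnj12 had 32 counts in juvenile replicate 2, and Kcng1 had 29 counts in juvenile replicate 3, each with none elsewhere. The inward rectifier Kcnj5 had 191 counts in adult replicate 4, 5 in adult replicate 2 and none in the other libraries. Adult replicate 4 had the highest erythroid sum of the 9 libraries, 33871 CPM, and the highest megakaryocyte and platelet sum, 4247 CPM against 12.95 to 605 in the others. The B cell marker sum, by contrast, was 56.0 CPM in adult replicate 4 and highest, at 145 CPM, in adult replicate 3, which had no Kcna3 count. The part of these cells in the counts of Kcna3 and Kcnj5 was not tested.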
